A study of Mus musculus with 5 samples.

Results

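The platelet-derived growth factor (PDGF) and fibroblast growth factor (FGF) genes described here are 10 of the 27998 genes counted in single-cell RNA sequencing of the mouse temporomandibular joint (TMJ) disc, the fibrocartilage plate between the jaw and the skull. They are the ligands Pdgfa, Pdgfb and Fgf18, the receptors Pdgfra, Pdgfrb, Fgfr1 and Fgfr2, and the feedback inhibitors Spry1, Spry2 and Dusp6, matched by symbol. The set was chosen by its role in growth factor signalling and by 1 measured value, since Spry2 was selected on its high level in mural cells of the injured disc; that level is therefore given as a description only. Discs of mice labelled wild-type C57BL/6 were taken at 3 days (3 d), 3 weeks (3 w), 16 weeks (16 w) and 78 weeks (78 w) without treatment, and a further set at 7 weeks of age, 2 weeks after surgery on the right side in which the front band of the disc was injured with a needle (the injured disc; the labels say pinched, the methods punctured). Each condition is 1 library of dissociated disc cells, so no difference between conditions could be tested against replicate error, and the intervals given are exact 95% intervals for counting error only. The newborn suspension mixed pups of both sexes, the mice of the 3 older untreated stages were males, and the labels give no sex for the injured disc. The methods describe the injury in Myh11-CreER+; Tm fl/- mice, of which only males were used, whereas the injured sample is labelled wild-type, and which mice it came from was not settled here. No sham-operated disc and no uninjured disc of the same age was analysed here.

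PDGF ligands act on neighbouring cells through paired receptor tyrosine kinases. PDGF-A signals through PDGFRα on mesenchymal cells, whereas PDGF-B released by endothelium signals through PDGFRβ and attracts and keeps the mural cells (pericytes and smooth muscle cells) that wrap small vessels. FGF18 is a growth factor of cartilage and bone that acts on FGF receptors, and both families drive the RAS and ERK cascade, whose output induces its own brakes: Sprouty proteins (Spry1, Spry2) restrain the cascade downstream of the receptor, and DUSP6 is the phosphatase that removes phosphate from ERK. A transcript level of these inhibitors is often used as a readout of the cascade, which these counts do not measure directly.

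In the GRCm38 annotation Spry2 is a short gene on the minus strand at chr14:105891947-105896819, with no annotated gene overlapping it, Spry1 lies at chr3:37639947-37644598 on the plus strand and Dusp6 at chr10:99263231-99267489 on the plus strand. Pdgfa (chr5:138976014-138997370), Pdgfb (chr15:79995874-80014977) and Fgf18 (chr11:33117430-33147400) are on minus strands, and Pdgfra (chr5:75152292-75198215) and Fgfr1 (chr8:25513654-25575718) on plus strands. All are protein-coding, and genes on the opposite strand overlap Pdgfa, Pdgfb, Pdgfra, Fgfr1 and Spry1. The annotated interval of Fgfr2 on chromosome 7 spans 2960900 bases and overlaps 69 other genes, and whether this touched its counts was not tested. The 250 bases upstream of the annotated start of the 3 feedback genes are printed because these genes were distributed differently over the cell classes. No difference in level is read from them. They are from RefSeq (GRCm38.p6), 5′ to 3′ on the strand of the gene, and the intervals are chr14:105896820-105897069 for Spry2, chr3:37639697-37639946 for Spry1 and chr10:99262981-99263230 for Dusp6.
Spry2: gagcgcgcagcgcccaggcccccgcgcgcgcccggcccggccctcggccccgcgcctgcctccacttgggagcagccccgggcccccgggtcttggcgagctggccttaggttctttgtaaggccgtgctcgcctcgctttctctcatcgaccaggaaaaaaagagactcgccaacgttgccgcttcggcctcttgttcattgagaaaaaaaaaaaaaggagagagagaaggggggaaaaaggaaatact
Spry1: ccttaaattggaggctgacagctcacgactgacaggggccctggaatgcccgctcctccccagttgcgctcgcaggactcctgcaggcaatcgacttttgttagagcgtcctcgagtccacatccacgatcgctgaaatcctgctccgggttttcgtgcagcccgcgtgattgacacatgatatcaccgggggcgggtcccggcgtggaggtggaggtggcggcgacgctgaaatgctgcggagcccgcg
Dusp6: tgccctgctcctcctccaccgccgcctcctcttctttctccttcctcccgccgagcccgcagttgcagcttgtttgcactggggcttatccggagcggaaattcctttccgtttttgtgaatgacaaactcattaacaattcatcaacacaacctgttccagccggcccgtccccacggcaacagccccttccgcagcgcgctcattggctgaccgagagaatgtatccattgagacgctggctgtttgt

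None of these 3 stretches held the letters of the motifs searched on both strands, which is why none of their bases is in capitals. The motifs were an ETS site (CCGGAAGT), its core (CCGGAA), AP-1 (TGAGTCA or its complement TGACTCA), a CRE (TGACGTCA), an E-box (CACGTG) and a TATA box (TATAAA); ETS and AP-1 factors are ERK-responsive, and the ETS core lies within the full ETS site. Among windows of 300 bases reaching 50 bases past the start, 7 of the 10 genes had an entry (not Pdgfb, Pdgfrb or Fgfr1), and only 2 motif matches were found in their 8 windows. The Spry2 window held the ETS core starting 33 bases past the start, in capitals in the stretch gtcatctatcCCGGAAtccgggaggg, and the Fgfr2 window held an E-box. The ETS core occurred in 14.9% and the E-box in 7.15% of all 32851 windows, the full ETS site in 3.89%, AP-1 in 5.20%, the CRE in 1.79% and the TATA box in 13.6%. A match of letters does not show binding.

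After filtering, 8467 to 14959 cells per library were kept. Of 51948 cell barcodes in all, 275 occurred in more than 1 library. Cells were clustered without the growth factor genes, and clusters were named from marker lists by a rule set after the clusters had been seen. There were 3 stromal clusters (fibroblasts and chondrocyte-like cells of the disc), and endothelial (EC)-like, mural-like, macrophage (MPh)-like, synovial lining fibroblast-like, erythroid-like and Schwann-like clusters. The leading genes of the stromal clusters included Ibsp, Cytl1 and Chad in cluster 1, Coch, Kera and Tnmd in cluster 2, and Pi16 and Clec3b in cluster 3. Levels are in CPM, the UMIs (unique molecular identifiers, that is counted RNA molecules) of a gene per 1000000 UMIs of the whole class within each library. The stromal class held 6905 to 10863 cells per library, the EC-like class 364 to 1014, the mural-like class 118 to 351, the MPh-like class 112 to 469 and the synovial lining-like class 75 to 452. Orders between classes are given over these 5 classes and leave out the erythroid-like cells and the few Schwann-like cells.

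The injured library stood apart in ways that touch every comparison with it. Its median cell held 3299 UMIs, against 7721 to 12496 in the other libraries. Xist, the RNA that coats the inactive X chromosome of female cells, was at 644 CPM in the injured library, and the Y-linked gene Ddx3y had 0 UMIs of 31585993, which goes against an all-male sample, whereas 3 w, 16 w and 78 w had 116 to 148 CPM of Ddx3y and at most 0.337 CPM of Xist, and 3 d had both. Sex-linked expression, injury, age and library therefore cannot be told apart in these comparisons. Satellite-repeat transcripts such as Gm26870 took 1.15% of UMIs in the injured library against 0.00231 to 0.0636% in the others, and 1568 injured cells held 1% or more of them. Mitochondrial genes took a median of 1.82% of UMIs in injured cells against 2.56 to 4.72% elsewhere. A list of 11 early genes known to respond to enzymatic dissociation summed to 10129 CPM in injured mural-like cells, between 5107 at 3 d and 21854 at 16 w.

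The PDGF ligands and receptors were divided between cell classes in every library. Among the 5 classes Pdgfa was highest in mural-like cells, at 551 CPM at 3 d, 564 at 3 w, 396 at 16 w, 419.5 at 78 w and 495 in the injured disc (160 to 1715 UMIs). Each of these values lay above every stromal, EC-like, MPh-like and synovial lining-like value, which ranged over 70.7 to 200.05, 56.8 to 243, 36.3 to 131 and 117 to 176 CPM and overlapped one another. The 12 injured Schwann-like cells held 909 CPM (509 to 1498) on 15 UMIs, above the injured mural-like value. Pdgfa in stromal cells was 70.7 CPM at 3 d, 100.2 at 3 w, 117 at 16 w, 113 at 78 w and 200.05 in the injured disc, lowest at 3 d and highest in the injured disc.

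Pdgfb, the endothelial ligand, was 145 CPM at 3 d, 76.6 at 3 w, 102 at 16 w, 115 at 78 w and 178 in the injured disc in EC-like cells (147 to 1051 UMIs). MPh-like cells came next at 8.88 to 68.7 CPM, with their highest value at 3 w, and below every EC-like value. Mural-like cells held 4.00 to 34.0 CPM and stromal cells 0.0886 to 0.999 CPM, and in synovial lining-like cells at most 3 UMIs were found in any library. In stromal cells the ratio to EC-like cells ran over 0.00116 to 0.00624, near the 0.000729 to 0.00982 at which the EC genes Pecam1, Cdh5, Emcn and Egfl7 appeared there, and within it in each library, so Pdgfb in stromal cells is read as background. In MPh-like cells the ratio was 0.0611 to 0.896 against 0.00225 to 0.0161 for the EC genes, which is above that background.

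Pdgfra marked the stromal and synovial lining-like cells. It was 132 CPM at 3 d, 146 at 3 w, 188 at 16 w, 173 at 78 w and 129.8 in the injured disc in stromal cells (3636 to 16506 UMIs), a narrow range with 16 w at the top. Synovial lining-like cells held 196 to 340.0 CPM, with 3 d at the top, and exceeded the stromal value of the same library in all 5, at 16 w by less than the counting error (175 to 222). With each cell thinned to 1000 UMIs the order turned at 3 w and 16 w, where synovial lining-like cells held 147 and 165 CPM and stromal cells 167 and 204. In EC-like, mural-like and MPh-like cells the level was 29.1 to 45.5, 27.0 to 44.3 and 20.9 to 49.8 CPM. Relative to stromal cells these were ratios of 0.225 to 0.263, 0.205 to 0.238 and 0.111 to 0.341, and the stromal matrix genes Dcn, Lum, Fmod and Col1a2 gave 0.143 to 0.257, 0.187 to 0.464 and 0.108 to 0.373 in the same cells. Pdgfra in mural-like cells was within or below the range of these genes in every library, and in EC-like cells it was slightly above it at 3 d, 3 w and 78 w. In MPh-like cells it was above that range at 78 w, at 0.177 against at most 0.138, and at 3 d, at 0.245 against at most 0.241. Only the mural-like level is therefore read as background throughout.

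Pdgfrb, the receptor of mural cells, was 413 CPM at 3 d, 379 at 3 w, 327 at 16 w, 258 at 78 w and 223 in the injured disc in mural-like cells (72 to 1284 UMIs). Among the 4 uninjured stages each older one was lower, and 78 w stood at 0.625 (0.564 to 0.693) times 3 d. The median cell of the mural-like class held 5920 UMIs at 78 w and 7248 at 3 d. Stromal cells were next, at 47.1 CPM at 3 d, 117 at 3 w, 76.3 at 16 w, 52.4 at 78 w and 56.2 in the injured disc, with 3 w above all other stages: 3 w was 2.49 (2.41 to 2.58) times 3 d, and 16 w 0.650 (0.630 to 0.670) times 3 w. The 3 w peak was present in each of stromal clusters 1, 2 and 3, at 85.1, 208 and 154 CPM against 46.2, 55.3 and 41.1 at 3 d and 39.5, 84.9 and 96.3 at 78 w. EC-like, MPh-like and synovial lining-like cells held 9.81 to 34.2, 7.84 to 34.0 and 22.5 to 35.9 CPM, ranges that overlapped.

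**Figure D1:**
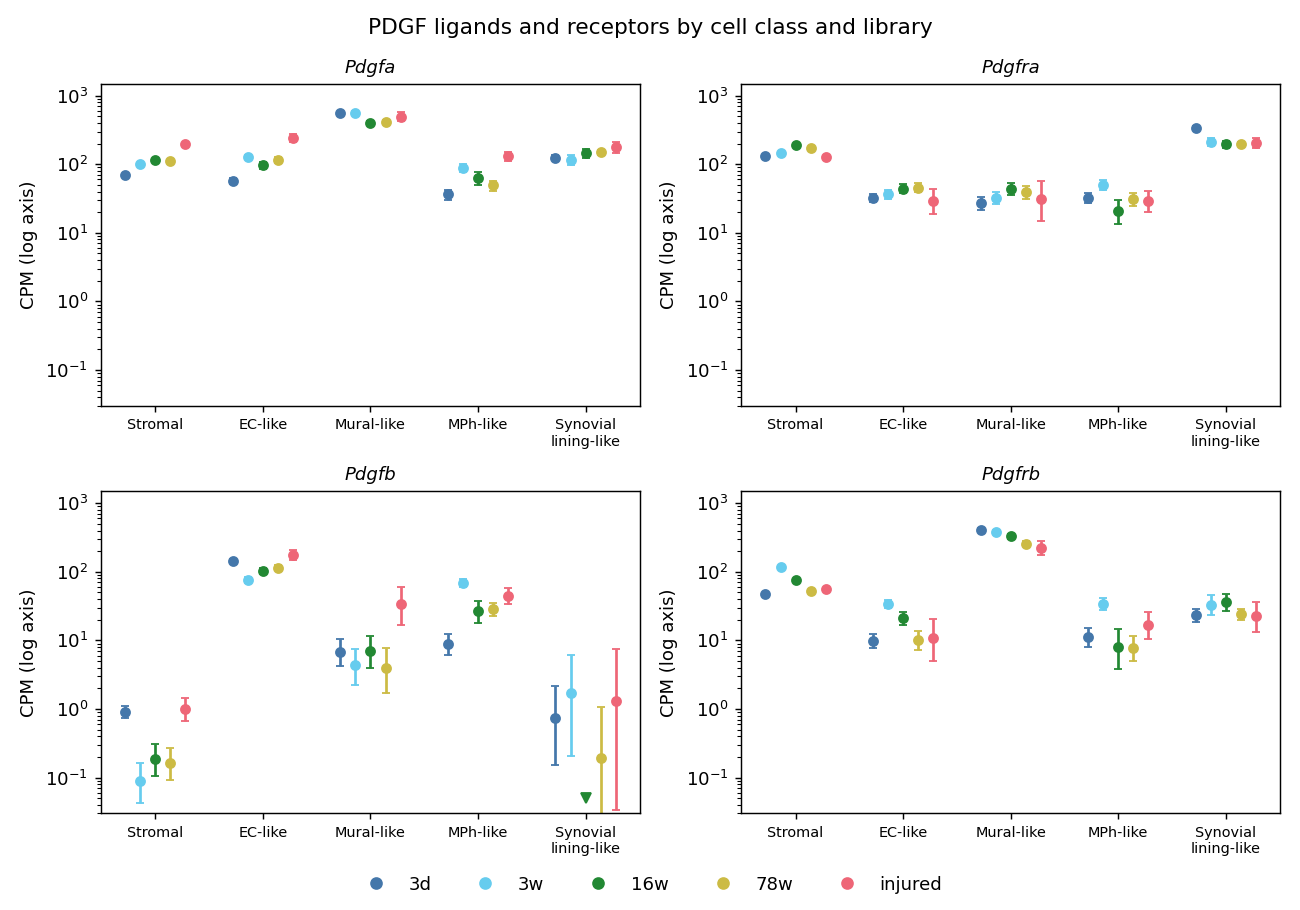
CPM on a log axis of Pdgfa, Pdgfra, Pdgfb and Pdgfrb in 5 cell classes, 1 point per library coloured by condition, with exact 95% Poisson intervals that cover counting error only and a triangle for 0 UMIs. Pdgfa and Pdgfrb were highest in mural-like cells, Pdgfb in EC-like cells and Pdgfra in stromal and synovial lining-like cells in every library.

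For Pdgfrb and Pdgfb, thinning each cell to 1000 UMIs, which removes differences in depth, left the same leading class in shares of cells. Pdgfrb was found in 36.3, 34.3, 32.5, 24.1 and 20.95% of mural-like cells in order of age and then after injury, and in 0.471 to 1.49% of EC-like cells, a class that should lack it. The unthinned share in injured mural-like cells was 36.4%, against 87.2% at 3 d. Pdgfb was found in 16.4, 6.36, 11.2, 11.5 and 15.4% of EC-like cells in the same order, and in at most 0.111% of stromal cells. Between 0 and 13 mural-like cells and between 12 and 164 EC-like cells per library were left out as too shallow.

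Fgfr1, the broad FGF receptor of mesenchymal tissue, was 177 CPM at 3 d, 156 at 3 w, 196 at 16 w, 168 at 78 w and 141 in the injured disc in stromal cells (3952 to 17968 UMIs). This was the flattest course of the 10 genes in that class. MPh-like cells held 78.9 CPM at 3 d, 117 at 3 w, 174 at 16 w, 158 at 78 w and 70.0 in the injured disc; their 16 w and 78 w values reached into the stromal range and lay 0.890 and 0.937 times the stromal level of the same library, above the 0.108 to 0.144 and 0.115 to 0.138 of stromal matrix genes. Synovial lining-like cells held 103 to 141 CPM, and mural-like and EC-like cells 55.3 to 99.0 and 40.1 to 79.6 CPM, overlapping one another. At 3 d and in the injured disc MPh-like cells were below synovial lining-like cells. In the injured disc they were also below mural-like cells, by less than the counting error.

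Fgfr2 was low in stromal cells and higher at each older stage, at 13.0 CPM at 3 d, 17.8 at 3 w, 25.2 at 16 w, 35.2 at 78 w and 15.9 in the injured disc (445 to 3197 UMIs). The 78 w value was 2.71 (2.54 to 2.89) times that of 3 d, and the injured disc lay below 3 w. The mix of stromal clusters also differed between these libraries: cluster 1 made up 20.4% of stromal cells at 3 d and 65.5 to 71.1% at 3 w, 16 w and 78 w. Within cluster 1 Fgfr2 was 22.1, 20.9, 31.3 and 40.8 CPM at the 4 ages, within cluster 2 16.7, 11.9, 11.3 and 25.9 CPM, and within cluster 3 7.22, 6.59, 5.78 and 8.32 CPM. A higher value at 78 w than at 3 d was thus seen within clusters 1 and 2, with a smaller difference within cluster 3, but no higher value at 3 w. Cluster 1 was above cluster 3 in every library. In synovial lining-like cells Fgfr2 was 24.9 CPM at 3 d on 102 UMIs, above the stromal value. In the other libraries it was 4.67 to 8.52 CPM there, below the stromal values.

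Fgfr3, the chondrocyte FGF receptor on the wider pathway list, differed more between stages in stromal cells, at 2.76 CPM at 3 d, 8.55 at 3 w, 27.3 at 16 w, 26.4 at 78 w and 10.5 in the injured disc. In cluster 1 it was 4.36 CPM at 3 d and 33.3 at 16 w, and in cluster 3 1.86 and 2.80. The ligand Fgf18 was 46.3 CPM at 3 d, 41.6 at 3 w, 67.8 at 16 w, 58.8 at 78 w and 45.9 in the injured disc in stromal cells (1285 to 5441 UMIs), within a range of less than 2-fold. Mural-like cells held 13.5 to 49.1 CPM, with the lowest value at 3 d, and synovial lining-like cells 13.3 to 53.9 CPM. In stromal cells of the injured disc Fgf18 was 52.1 CPM in cluster 1, 34.8 in cluster 2 and 31.7 in cluster 3, against 60.0, 89.98 and 79.5 at 16 w and 33.5, 62.1 and 57.2 at 3 w; it was below both stages in clusters 2 and 3 and between them in cluster 1.

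**Figure D2:**
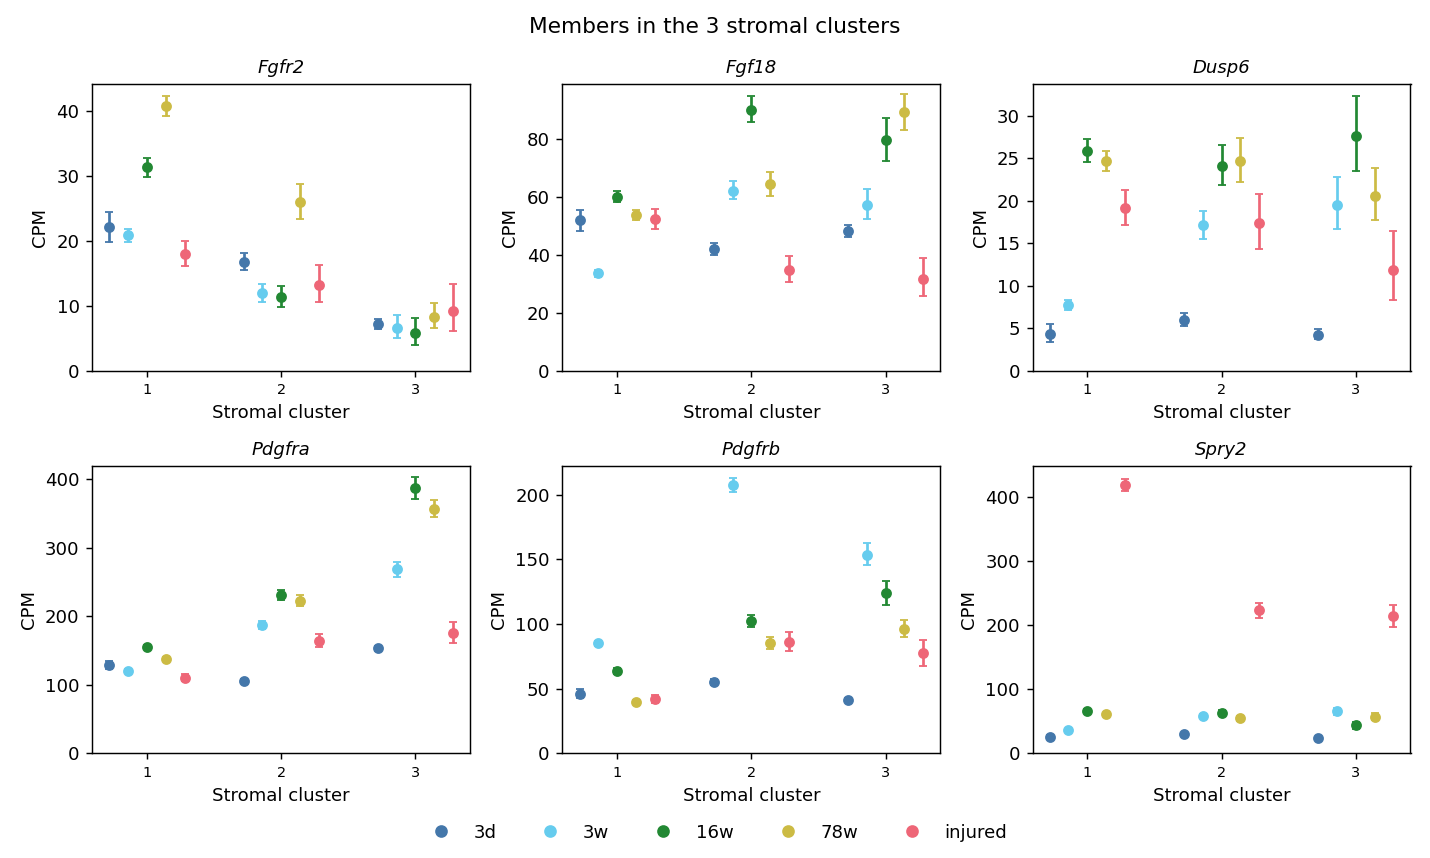
CPM of 6 of the genes in stromal clusters 1, 2 and 3, 1 point per library coloured by condition, with exact 95% Poisson intervals for counting error only. Pdgfra was higher in cluster 2 than in 1 and higher in 3 than in 2 at 3 w, 16 w and 78 w, Fgfr2 was highest in cluster 1, Dusp6 was lowest at 3 d in all 3 clusters, and Spry2 was highest in the injured disc in all 3.

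The 3 feedback inhibitors each had a different distribution. Spry1 was 45.2 CPM at 3 d, 159.8 at 3 w, 126 at 16 w, 95.8 at 78 w and 59.5 in the injured disc in EC-like cells and 122 CPM at 3 d, 149 at 3 w, 96.1 at 16 w, 83.4 at 78 w and 71.2 in the injured disc in mural-like cells, 2 ranges that overlapped. Both classes were at their highest at 3 w. Mural-like cells were above EC-like cells at 3 d and in the injured disc, in the latter by less than the counting error. Stromal cells held 14.2 to 24.3 CPM, MPh-like cells 3.21 to 15.1 and synovial lining-like cells 1.33 to 9.85.

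Among the 5 classes Dusp6 was highest in EC-like cells, at 73.2 CPM at 3 d, 138 at 3 w, 76.1 at 16 w, 91.5 at 78 w and 126 in the injured disc. At 16 w the MPh-like value of 73.0 CPM lay within the EC-like interval of 67.6 to 85.4, and Schwann-like cells held 198 CPM at 16 w on 7 UMIs and 94.8 at 78 w. In stromal cells it was 4.87 CPM at 3 d, 10.7 at 3 w, 25.6 at 16 w, 24.3 at 78 w and 17.9 in the injured disc (494 to 2203 UMIs), lowest at 3 d, and 16 w reached 5.26 (4.77 to 5.82) times the 3 d value. The low 3 d value held within clusters 1, 2 and 3, at 4.30, 5.94 and 4.22 CPM against 25.9, 24.1 and 27.7 at 16 w. The list of dissociation genes summed to 5299.6 CPM at 3 d and 15863 at 16 w in the same cells, and its part in the difference was not tested. MPh-like cells held 20.9 to 73.0 CPM with no order by age, and mural-like cells 21.7 to 45.9.

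Among these 5 classes Spry2 was highest in mural-like cells in every library, although at 16 w the stromal value of 64.2 CPM lay within the mural-like interval of 61.4 to 84.6. It was 46.3 CPM at 3 d, 244 at 3 w, 72.3 at 16 w, 87.9 at 78 w and 1469.6 in the injured disc (144 to 675 UMIs). The 3 w value stood above the other uninjured stages, with a ratio to 16 w of 3.37 (2.83 to 4.04), and the injured value was above all of them. That injured value is the one by which the gene was picked, and its ratio of 6.03 to 3 w and 20.3 to 16 w is a description. By the smaller of both ratios it was gene 9 of 9177 in mural-like cells, and Xist, Gm10800 and Gm26870 were among those above it. The few Schwann-like cells, outside these 5 classes, held more Spry2 than mural-like cells except at 78 w. Their values were 109 CPM at 3 d, 512 at 3 w, 425 at 16 w, 75.8 at 78 w and 2604 in the injured disc, on 8 to 43 UMIs.

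The injured disc was compared with 3 w and 16 w, the stages on either side of its age, to ask which of these genes differ after injury. A gene was called higher when its CPM was at least 2 times that of both libraries and lower when it was at most 0.5 times both, among genes with 30 UMIs or more over the 3 libraries. In stromal cells 2 of 10 genes, Spry2 and Pdgfb, were called higher, where 5.16% of all 14827 genes tested were, and 0 of 10 were called lower, where 9.05% were. In EC-like cells 1 of 10, Spry2, was higher (background 1.94%) and 1 of 10, Spry1, lower (background 13.6%). Since Spry2 was picked in the same injured library, nothing is read from the count of higher genes in either class. In mural-like cells 2 of 9 tested genes, Spry2 and Pdgfb, were past the higher limit (background 3.12%), but the call of Spry2 there follows from how it was chosen, and nothing is read from this count. None of the 9 was lower (background 14.8%). Fgfr2 was not tested there, with 0 UMIs in injured cells. Taken as 3 counts this would be 9.28 CPM, and the exact interval reaches 11.4 CPM. The median gene was itself shifted, at log2 ratios of -0.28 and -0.24 in stromal, -0.25 and -0.38 in EC-like and -0.22 and -0.20 in mural-like cells against 3 w and 16 w, so ratios slightly below 1 are those of the median gene.

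Outside the class on which it was picked, Spry2 was also highest in the injured disc. In stromal cells it was 25.8 CPM at 3 d, 42.9 at 3 w, 64.2 at 16 w, 59.9 at 78 w and 351 in the injured disc (2615 to 9832 UMIs), and the injured value was 8.18 (7.91 to 8.47) times 3 w and 5.47 (5.28 to 5.65) times 16 w. In EC-like cells it was 13.7 CPM at 3 d, 27.3 at 3 w, 25.3 at 16 w, 25.7 at 78 w and 151 in the injured disc, ratios of 5.53 (4.32 to 7.06) and 5.96 (4.53 to 7.86) on 124 injured UMIs. All 8 MPh markers were detected in injured EC-like cells and summed to 139.6 CPM there, against 20.8 to 39.1 in the other libraries, and in injured stromal cells they summed to 118 CPM against 13.6 to 25.6; MPh-like cells had the lowest Spry2 of the 5 classes in every library, at 3 w by less than the counting error. MPh-like cells held 9.64 CPM at 3 d, 27.1 at 3 w, 16.0 at 16 w, 19.4 at 78 w and 111 in the injured disc, and synovial lining-like cells 22.9 CPM at 3 d, 79.2 at 3 w, 38.0 at 16 w, 28.6 at 78 w and 239 in the injured disc. Even the 12 injured Schwann-like cells held 43 Spry2 UMIs of 16510, 2604 CPM, against 75.8 to 512 CPM in the other libraries, from 10 to 42 cells each. In every one of these classes the interval of the injured value lay above those of the 4 other libraries.

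Ranked by the smaller of its ratios to 3 w and 16 w, Spry2 was gene 137 of 14827 in stromal cells, 16 of 10567 in EC-like cells, 41 of 9070 in MPh-like cells and 60 of 7915 in synovial lining-like cells. Of the 7 genes tested in all 5 classes it was past the higher limit in each, as 39 of 7242 genes were (0.539%); since the mural-like class chose it, nothing is read from that share. Those genes included Xist, Gm10800 and Gm26870, the ribosomal protein genes Rpl41, Rpl27, Rpl39 and Rps28, and Abhd2, Notch2, Nme2 and Tmsb10 (named after their values were seen). The part of sex and library in the Spry2 difference cannot be told apart from injury. Leaving out every cell with 1% or more satellite UMIs left the smaller ratio at 5.17 in stromal, 5.68 in EC-like and 5.77 in mural-like cells, the last a description only. Spry2 at 3 d was lower than at 3 w, 16 w and 78 w in all 5 classes. The 3 d library mixes both sexes, with 874 CPM of Xist, but it also differs in age. Its cells were not split by sex, so its Spry2 level does not bear on sex, whose part was not tested.

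Stromal matrix genes were counted in the other classes too, and whether through free RNA, doublets or mixed cells was not tested. In the injured library Spry2 in EC-like cells was 0.429 times the stromal level and in MPh-like cells 0.316 times, while the stromal matrix genes were at 0.185 to 0.234 and 0.225 to 0.248. Spry2 was thus above the background of stromal genes in EC-like cells and closer to it in MPh-like cells. Relative to mural-like cells, where Spry2 was highest among the 5 classes, it was 0.102 times in EC-like and 0.0756 times in MPh-like cells. The mural genes Rgs5, Notch3, Mcam and Tagln were at 0.000281 to 0.398 and at most 0.00743. By these genes the MPh-like value lay above the background. The EC-like value lay within their wide range but above their median of 0.00868, so these genes do not place it. Thinned to 1000 UMIs, Spry2 was found in 23.6% of 6562 cells (22.6 to 24.6%) of the injured stromal class and in 4.60 and 5.60% at 3 w and 16 w. The share was 64.8% of 105 cells (54.8 to 73.8%) in injured mural-like cells, against 19.9 and 4.58%, and 12.1% of 280 cells (8.56 to 16.6%) in injured EC-like cells, against 2.03 and 2.35%. Before thinning the stromal shares were 50.7% after injury, 32.9% at 3 w and 35.4% at 16 w.

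Neither Spry1 nor Dusp6 was called higher after injury in stromal, EC-like, mural-like or MPh-like cells. Spry1 in EC-like cells was 0.372 (0.273 to 0.496) times 3 w and 0.474 (0.345 to 0.636) times 16 w on 49 injured UMIs. Scaled to the median gene these became 0.443 and 0.616, and the call was lost. In stromal cells Spry1 was 0.743 and 0.585 times and in mural-like cells 0.479 and 0.740 times. Dusp6 lay between both stages in stromal cells, at 1.68 and 0.700 times, and in EC-like cells, at 0.918 and 1.66 times. Spry4, another Sprouty gene, was 85.9 CPM at 3 d, 109.8 at 3 w, 70.4 at 16 w, 72.9 at 78 w and 65.0 in the injured disc in mural-like cells and 2.45 CPM at 3 d, 3.22 at 3 w, 7.64 at 16 w, 5.49 at 78 w and 3.89 in the injured disc in stromal cells, and its injured value lay within the range of the other libraries in stromal cells.

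**Figure D3:**
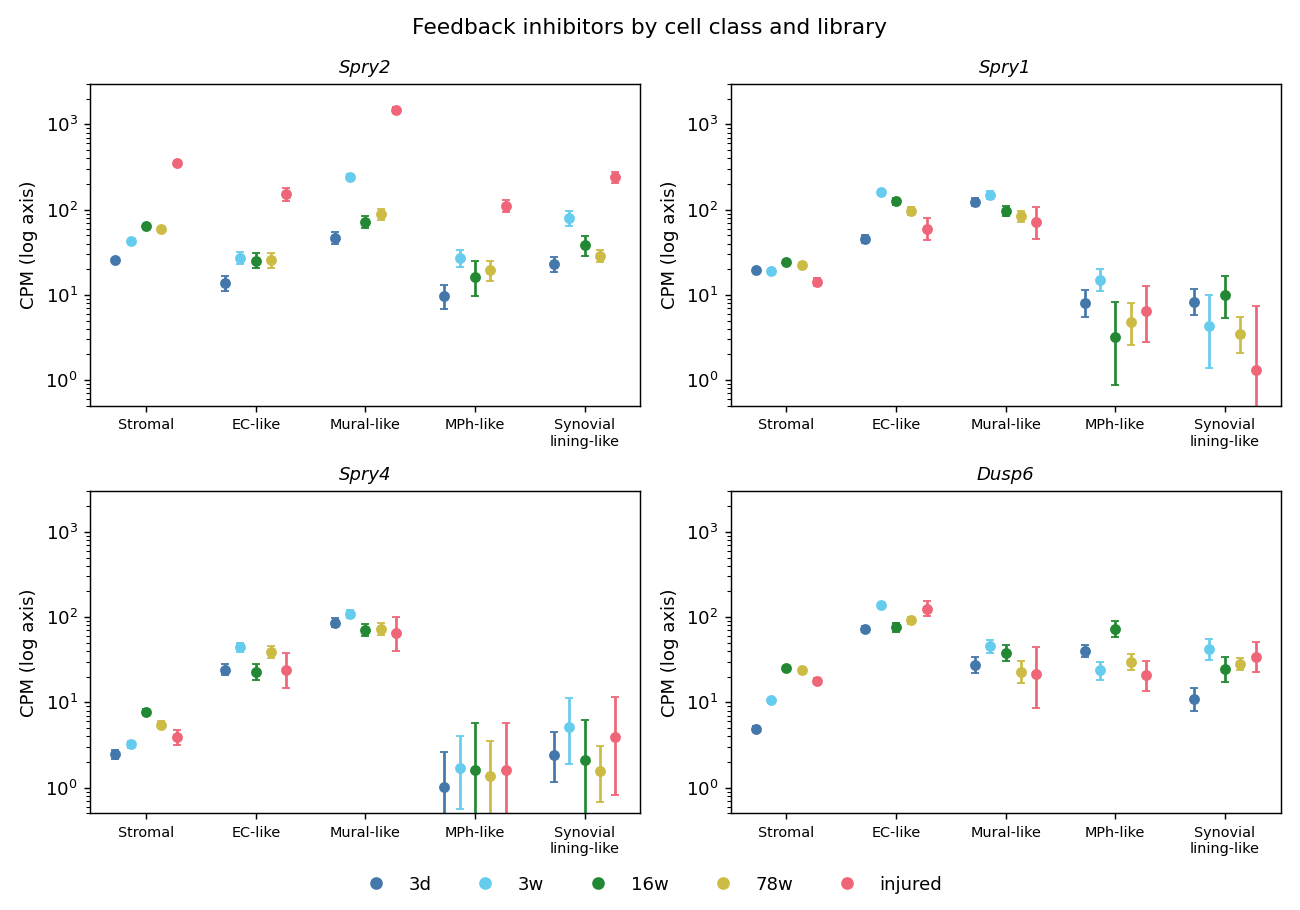
CPM on a log axis of Spry2, Spry1, Spry4 and Dusp6 in 5 cell classes, 1 point per library coloured by condition, with exact 95% Poisson intervals for counting error only. The injured library is the highest point for Spry2 in all 5 classes and for none of the other 3 genes in stromal or mural-like cells.

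Pdgfa was next in size among genes with high counts. In stromal cells its injured level was 1.996 (1.93 to 2.06) times 3 w and 1.71 (1.65 to 1.77) times 16 w, short of the limit against both, and in EC-like cells 1.88 (1.60 to 2.21) and 2.53 (2.12 to 3.01) times. Scaled to the median gene the stromal ratios were 2.43 and 2.02, and Pdgfa was then called higher. The injured stromal value was above the other libraries in each stromal cluster, at 204, 198 and 181 CPM against at most 113, 162 and 100.1. In mural-like cells, its leading class, it was 0.878 and 1.25 times, between both stages. In MPh-like cells it was 36.3 CPM at 3 d, 88.9 at 3 w, 62.6 at 16 w, 49.1 at 78 w and 131 in the injured disc.

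The calls of Pdgfb rested on few UMIs. In stromal cells there were 28 UMIs of 28018111, and its ratio to EC-like cells, 0.00560, lay within the 0.00390 to 0.00904 of EC genes, that is at background. In mural-like cells there were 11 UMIs, 34.0 CPM (17.0 to 60.9), 0.191 times the EC-like level where EC genes were at 0.0458 to 0.0790. All 8 EC markers were detected in injured mural-like cells and summed to 291 CPM, against 118 to 417 in the other libraries, and without the cells that held 2 or more markers of another class Pdgfb was no longer called in either class. In EC-like cells, its leading class, Pdgfb was 2.33 (1.92 to 2.82) and 1.74 (1.43 to 2.11) times 3 w and 16 w on 147 injured UMIs. Scaled to the median gene, both ratios passed the limit and Pdgfb was called higher there.

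Receptors did not pass the limit in any of these 3 classes. Pdgfrb in injured mural-like cells was 0.587 (0.456 to 0.746) times 3 w and 0.680 (0.526 to 0.868) times 16 w on 72 UMIs, and in stromal cells 0.479 and 0.737 times. Summed over their cells, mural markers were 11784 CPM in injured mural-like cells against 11384 to 22202 in the other libraries, and stromal markers 18340.3 CPM against 8088 to 15221, with the injured value above the others; its part in the Pdgfrb ratio was not tested. Pdgfra was 0.887 and 0.691 times in stromal cells, Fgfr1 0.902 and 0.721 times and Fgfr2 0.892 and 0.630 times. Scaled to the median gene, the ratios to 3 w of these 3 were 1.08, 1.10 and 1.08. Against 16 w, where the median log2 ratio was -0.24, all 3 stayed lower in the injured disc after scaling. In MPh-like cells Fgfr1 was 0.600 (0.468 to 0.761) and 0.402 (0.310 to 0.518) times.

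**Figure D4:**
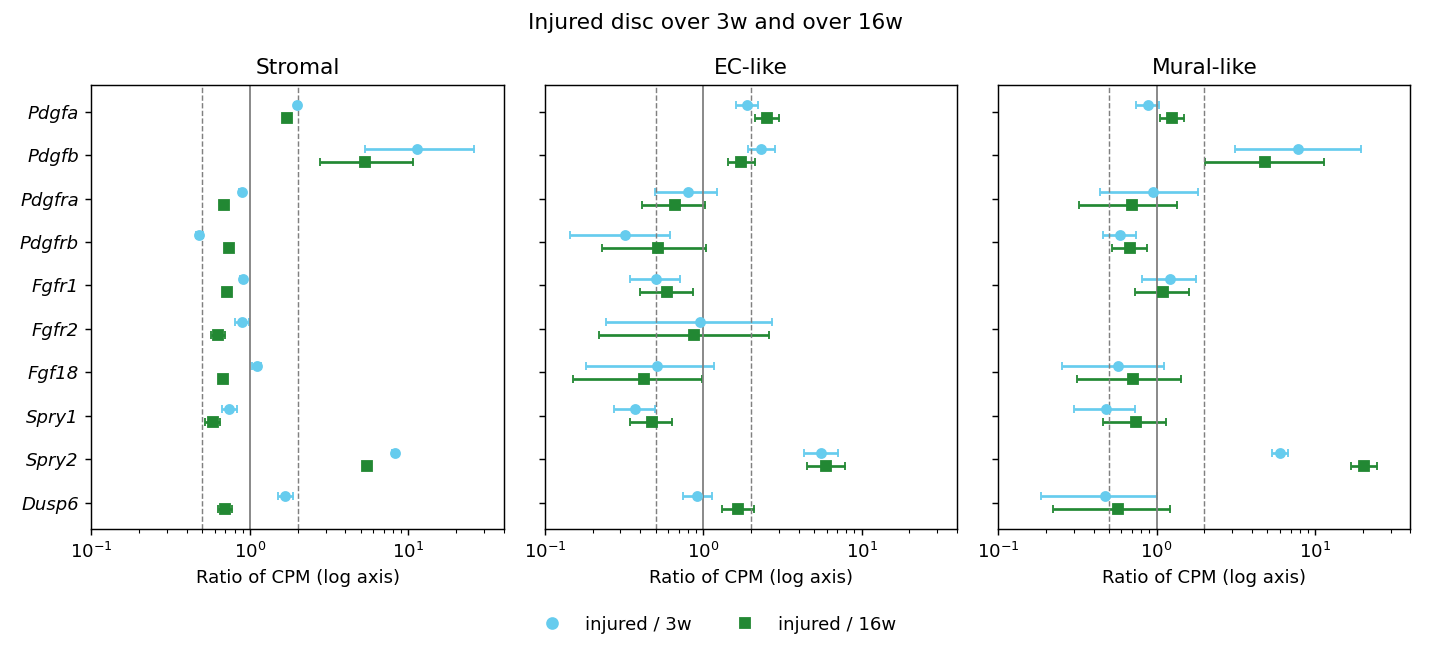
Ratios of CPM, injured over 3 w (circles) and injured over 16 w (squares), for the 10 genes in stromal, EC-like and mural-like cells on a log axis, with exact 95% intervals for counting error only; the solid line is 1 and the dashed lines are the limits of 0.5 and 2. Spry2 lies above 5 in all 3 panels; Fgfr2 in mural-like cells, with 0 injured UMIs, is not drawn.

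The wider list of 61 PDGF and FGF pathway genes, which includes the 10, gave calls in both directions after injury. In stromal cells 5 of 51 tested were higher, Pdgfb, Spry2 and the ERK target genes Etv5, Ccnd1 and Fosl1, and 5 were lower, Pdgfd, Fgf20, Fgfbp1 and the inhibitors Dusp5 and Il17rd. Over all genes tested 5.16% were higher and 9.05% lower. The median of the smaller ratio over the list was 0.645, against 0.714 over all genes tested. Fosl1, an AP-1 subunit, was 4.30 CPM at 3 d, 7.82 at 3 w, 15.7 at 16 w, 19.3 at 78 w and 34.2 in the injured disc, and Etv5, an ETS factor, 6.67 CPM at 3 d, 6.66 at 3 w, 13.2 at 16 w, 17.0 at 78 w and 27.3 in the injured disc; both were also higher at each older stage from 3 w to 78 w. Dusp5, another ERK phosphatase, was 13.1 CPM at 3 d, 26.0 at 3 w, 50.2 at 16 w, 30.8 at 78 w and 11.7 in the injured disc, lowest in the injured disc.

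In mural-like cells 4 of 37 were higher (Pdgfb, Spry2, Sulf2 and Ccnd1) and 5 lower (Fgfrl1, Sulf1, Frs2, Spred1 and Spred2), beside 3.12% and 14.8% of all genes and with the Spry2 call fixed by its choice, and with a median smaller ratio of 0.673 against 0.709 over all genes. The counts behind them were small: Spred1, an inhibitor related to the Sprouty genes, had 11 injured UMIs at 34.0 CPM against 85.3 at 3 w and 69.5 at 16 w, and Frs2, the FGF receptor adaptor, had 1. In EC-like cells 1 of 39, Spry2, was higher and 2, Spry1 and Dusp4, were lower, beside 1.94% and 13.6% of all genes, with medians of 0.663 and 0.675. Of the 11 listed feedback inhibitors, 10 were tested in each of the 3 classes, and Spry2 alone was called higher in each. Over all genes 5.16% were higher in stromal, 3.12% in mural-like and 1.94% in EC-like cells. Since Spry2 was picked on its injured level, nothing is read from its standing apart.

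The newborn disc was compared with 3 w, 16 w and 78 w by the same limits, each passed against all 3 later stages. In stromal cells 1 of 10 genes, Pdgfb, was called higher, where 15.1% of 16041 genes were, and 1 of 10, Dusp6, lower, where 10.3% were. Pdgfb there is at the level read as background above. In mural-like cells 0 of 10 were higher (background 10.7%) and 1 of 10, Fgf18, lower (background 10.3%). The Fgf18 call was lost with each cell thinned to 1000 UMIs. In EC-like cells 0 of 10 were higher (background 9.84%) and 1 of 10, Spry1, lower (background 9.74%). With 10 genes, 1 call is 10%, which is near the background.

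Fgf18 in mural-like cells was 13.5 CPM at 3 d, 49.1 at 3 w, 39.2 at 16 w, 45.4 at 78 w and 27.8 in the injured disc (9 to 136 UMIs), lowest at 3 d. With each cell thinned to 1000 UMIs, Fgf18 at 3 d was instead above 16 w. Its ratio to stromal cells at 3 d was 0.291, at the 0.220 to 0.302 of stromal matrix genes, and at 3 w 1.18, above their 0.193 to 0.272. Spry1 in EC-like cells was 0.283 (0.248 to 0.321) times 3 w, 0.360 (0.311 to 0.415) times 16 w and 0.472 (0.405 to 0.548) times 78 w. Spry2 was below the later stages in each class without passing the limit everywhere, with stromal ratios of 0.601, 0.401 and 0.430.

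Among the wider pathway list, Fgfbp1 and Sulf2, which handle FGF ligands, had high levels at 3 d. Of 54 tested pathway genes in stromal cells, 10 were higher at 3 d (Pdgfb, Pdgfd, Fgf9, Fgf16, Fgf21, Fgfr4, Fgfbp1, Sulf2, Spry3 and Ccnd1) and 6 lower (Fgf1, Fgf2, Fgf20, Fgfr3, Fgfrl1 and Dusp6), beside 15.1% and 10.3% of all genes, which are near these shares. Fgfbp1, a carrier that releases FGF from the matrix, was 38.1 CPM at 3 d, 0.381 at 3 w, 0.511 at 16 w, 0.0110 at 78 w and 0.107 in the injured disc, with under 1 CPM after 3 d. Sulf2, an enzyme that edits heparan sulfate, the FGF co-receptor, was 364 CPM at 3 d, 52.5 at 3 w, 34.7 at 16 w, 40.8 at 78 w and 78.4 in the injured disc. Sulf2 in the injured disc was 37.9, 101 and 276 CPM in clusters 1, 2 and 3, against 35.2, 27.0 and 51.8 at 16 w and 49.8, 53.2 and 75.3 at 3 w, so that in cluster 1 it was below 3 w. Of the 3 d calls in mural-like cells, 4 of 41 pathway genes were higher and 6 lower, and in EC-like cells 5 of 44 and 6, beside 10.7% and 10.3% of all genes in mural-like and 9.84% and 9.74% in EC-like cells. Sulf2 and Ccnd1 were higher at 3 d in all 3 classes.

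**Figure D5:**
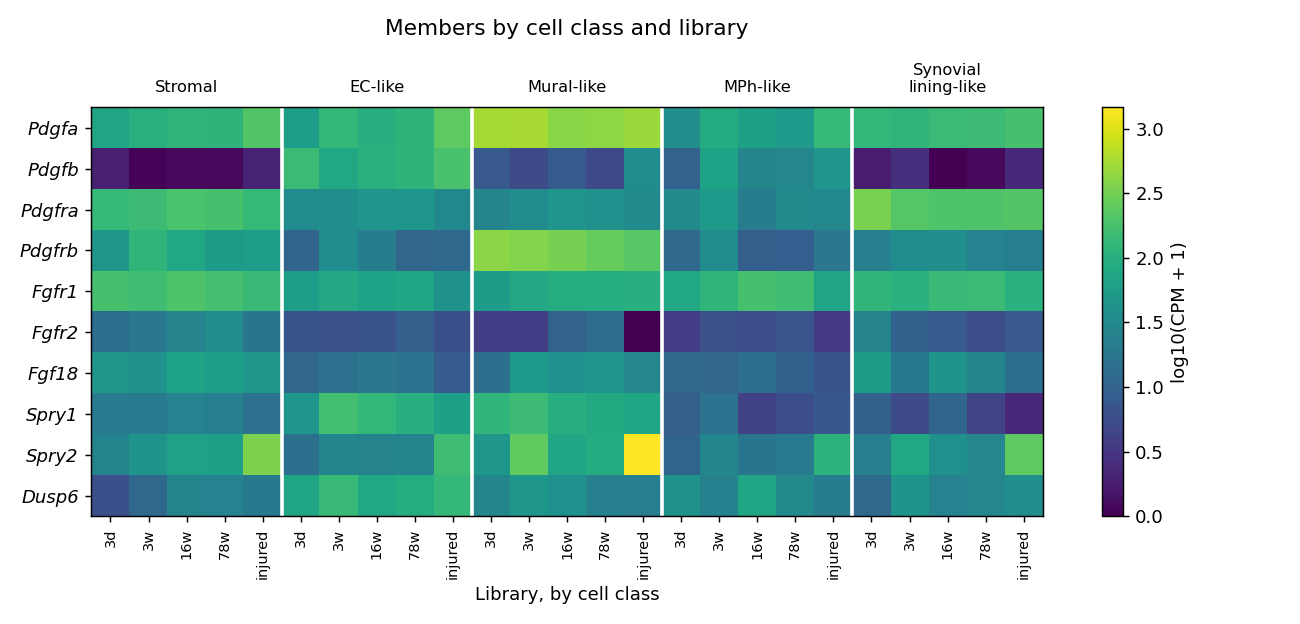
Colour gives log10(CPM + 1) of each of the 10 genes (rows) in each of 5 cell classes and 5 libraries (columns). The brightest field is Spry2 in injured mural-like cells, and the mural-like columns are the brightest of the rows Pdgfa and Pdgfrb.

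Within the stromal class the receptors divided the 3 clusters. Pdgfra was 155, 231 and 387 CPM in clusters 1, 2 and 3 at 16 w and 138, 223 and 357 at 78 w, so that the Pi16 and Clec3b cluster was highest. At 3 d the values were closer, at 129, 105 and 153, and after injury 110.0, 164 and 175, where clusters 2 and 3 were close together. Pdgfrb was highest in cluster 2 at 3 d and 3 w and in cluster 3 at 16 w and 78 w. The injured Spry2 level was 419 CPM in cluster 1, 223 in cluster 2 and 214 in cluster 3, in each at least 3 times the highest uninjured value.

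Mural-like cells were clustered again into 5 subclusters. Subcluster 1 (468 cells, high in Rgs5 and Kcnj8 and led by cell cycle genes) and subcluster 3 (224 cells, led by the cytokines Cxcl9 and Ccl2 and the EC gene Esm1) had little Myh11, the smooth muscle myosin, at 209.6 and 396 CPM, whereas subcluster 2 (424 cells) had 2829 and subcluster 5 (49 cells, none from the injured disc) 4549. Subcluster 4 (92 cells) was led by stromal genes, with 14168 CPM of Dcn. Pdgfrb was 517 CPM in subcluster 1 and 400.2 in subcluster 3 against 193 in subcluster 2, and Spry1 followed the same order at 189, 146 and 43.6 CPM. Fgfr1 was the reverse, at 37.1, 44.9 and 127 CPM. These orders did not follow Myh11, since subcluster 5 held 332 CPM of Pdgfrb, 108 of Spry1 and 38.3 of Fgfr1. Subcluster 4 held 210, 43.3 and 128 CPM. Fgfr1 was thus highest in subclusters 2 and 4, which were also highest in Dcn, at 3646 and 14168 CPM.

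Subcluster 1 held 248 of 351 mural-like cells at 3 d and 58 of 277 at 78 w, and the order of Pdgfrb by age over the whole class was not seen within it, where it was 480.3, 514, 764 and 534 CPM at the 4 ages. Subcluster 2 held 254, 270.3, 160.0 and 153 CPM and subcluster 3 434, 448, 341 and 309, both lower at 16 w and 78 w. After injury Pdgfrb was 231, 174 and 315 CPM in subclusters 1, 2 and 3 on 19, 20 and 31 UMIs, and of these it was lowest of the libraries in subcluster 1. In subcluster 4 it was also lowest, at 72.3 CPM on 2 UMIs. Spry2 was high after injury in subclusters 1, 2, 3 and 4, at 1156, 1468, 1913 and 832 CPM on 95, 169, 188 and 23 UMIs. Among uninjured stages it was highest at 3 w in subclusters 1, 2 and 3, and subcluster 3 was above subclusters 1 and 2 in every library.

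The genes whose levels were most like those of 3 of the genes were found by Pearson correlation of log2(CPM + 5) over 27 groups of 50 or more cells (class by library), among 11588 genes. These groups share libraries and depth, and they include the injured mural-like cells by which Spry2 was picked. The values are therefore descriptions. For Pdgfra they were Chrd (0.963), Cdon (0.959), Lpar1 (0.957), Slc39a13 (0.941) and Thbs4 (0.938), and for Pdgfrb Lhfp (0.920), Arhgef17 (0.920), Ctdspl (0.916), Il34 (0.916) and Dzip1l (0.907). For Spry2 they were Plac9b (0.841), Abhd2 (0.836), Rdh13 (0.823), Dlg4 (0.822) and Alkbh5 (0.819), lower values. Abhd2 is also among the genes higher in all 5 classes of the injured library. The same injured values enter both lists, so nothing is read from this overlap.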

How the data were processed

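Single-cell 3′ libraries (10x Genomics) of TMJ disc cells were analysed, 1 for each of 3 d, 3 w, 16 w, 78 w and the injured disc. The authors deposited raw UMI counts per gene and cell, made with Cell Ranger 3.1 on mm10 per the submitters' processing notes, while the deposited matrix headers name version 4.0.0. The library totals ranged from 31585993 to 125427849 UMIs.

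Barcodes passed at more than 200 UMIs with a mitochondrial share of 30% or less. Seurat 5.3.0 in R 4.3.3 was used for integration and clustering (2000 features, 30 dimensions, resolution 0.2), with the 61 pathway genes left out, and mural-like cells were clustered again with leidenalg 0.10.2 (20 neighbours, resolution 0.15). A cluster was named when at least 3 markers of a list reached 2 times the lower quartile (percentile 25) over the remaining clusters, with a mean log2 fold over the list of at least 3 and a marker among its top 10 genes (a mean of at least 1 for stromal). A cluster whose median UMIs were under 0.333 of those of its own libraries stayed unnamed where that mean was under 5, as did cluster 5, which was led by muscle genes. No doublet caller was run, and an alternative left out cells with 2 or more markers of another class.

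Counts were summed per class and library and divided by the total UMIs of the class. Exact Poisson (levels), conditional binomial (ratios) and Clopper-Pearson (shares) intervals were computed with scipy 1.17.1 at 95%. They cover counting error only, because each condition has 1 library, so no test between conditions was run. The ratio step was tested on simulated data. A count of 0 allows up to 3 counts. Background in a class was read from genes that mark the leading class. The 10 genes and the lists were chosen with earlier results of these data known. The genes named are those 10, the pathway list, the markers, the dissociation list and the 5 genes most correlated with each of Spry2, Pdgfra and Pdgfrb, and further genes are said to be chosen after their values were seen. Alternatives covered integration, resolution, cell filter, doublets, weighting, scaling, thinning to 1000 UMIs, the UMI minimum and the fold. Promoter windows and motif shares were read from RefSeq (GRCm38.p6), and gene positions from the GENCODE annotation of GRCm38.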

Additional observations from a re-analysis of the deposited data

How the results depend on the processing

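With 1 library per condition, no result could be set against replicate error. No paired analysis was possible because each condition has 1 library. The smaller injured ratio of Spry2 stayed above 2 under every alternative run. In mural-like cells, the class by which the gene was picked, this is a description only. In stromal cells it was 5.26 with equal weight per cell, 6.45 with median scaling, 4.95 with equal weight of stromal clusters and 5.17 without cells of 1% or more satellite UMIs, in mural-like cells 7.04 with median scaling, and in EC-like cells 4.00 without integration. The weighting by stromal cluster and both satellite alternatives were added after seeing the data.

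Of the 10 genes, those called higher after injury went from 2 to 1 in stromal and in mural-like cells without cells holding other markers or with a minimum of 100 UMIs, where Pdgfb was lost. In stromal cells it went to 3 with median scaling or a fold of 1.5, where Pdgfa was gained. Those called lower went from 0 to 1 in stromal cells with equal weight of clusters (Spry1) and in mural-like cells with a minimum of 10 UMIs (Fgfr2) or a fold of 1.5 (Dusp6). In EC-like cells, those called higher numbered 2 at resolution 0.5 and 3 with median scaling or a fold of 1.5 (Spry2, Pdgfa and Pdgfb). Those called lower there numbered 2 without integration, with the stricter cell filter or with thinning, 4 at a fold of 1.5, and 0 with median scaling or a fold of 3.

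At 3 d, those called lower numbered 2 in stromal cells at a fold of 1.5 or with equal weight of clusters, 2 in mural-like cells at a fold of 1.5, and in EC-like cells 2 with equal weight per cell and 3 at a fold of 1.5, and 0 in each class at a fold of 3. At resolution 0.5, 2 were called higher in EC-like cells.

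Of 1369 ratios of single genes under the alternatives, 1089 stayed within their interval, 277 moved and 3 reversed. Pdgfrb over 3 w and Fgf18 over 16 w in injured EC-like cells became 1.60 and 1.64 at resolution 0.5, and Fgf18 at 3 d over 16 w in mural-like cells 1.17 with thinning. By that last ratio Fgf18 was no longer called lower at 3 d in mural-like cells. The causes were not tested. Fgfr2 outside stromal cells had at most 41 UMIs in any library, except for 102 in synovial lining-like cells at 3 d. Pdgfb outside EC-like and MPh-like cells had at most 92. These low counts are limited by depth.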

Other observations

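Other ligands of both families were also divided between classes. Pdgfd, a ligand of PDGFRβ, was 25.01 CPM at 3 d, 20.7 at 3 w, 32.9 at 16 w, 28.0 at 78 w and 20.6 in the injured disc in EC-like cells, 0.571 to 3.99 CPM in stromal cells and at most 13.5 CPM in mural-like cells. Fgf1, a ligand of all FGF receptors, was 10.6 CPM at 3 d, 34.3 at 3 w, 43.4 at 16 w, 60.9 at 78 w and 24.8 in the injured disc in mural-like cells (8 to 122 UMIs), higher there than in any other of the 5 classes in each library. Fgf2, another broad FGF ligand, was 14.9 CPM at 3 d, 39.7 at 3 w, 35.7 at 16 w, 35.7 at 78 w and 32.1 in the injured disc in stromal cells, lowest at 3 d. Pdgfc, which signals through PDGFRα, was 26.7 CPM at 3 d, 29.6 at 3 w, 54.6 at 16 w, 48.9 at 78 w and 41.5 in the injured disc in stromal cells.

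Ccnd1, the cyclin of early G1 and a target of ERK signalling, was 521 CPM at 3 d, 67.5 at 3 w, 100.1 at 16 w, 129 at 78 w and 149 in the injured disc in EC-like cells and 155 CPM at 3 d, 25.7 at 3 w, 28.5 at 16 w, 30.5 at 78 w and 68.1 in the injured disc in mural-like cells. In both classes 3 d was the highest and 3 w the lowest. In mural-like cells the injured value rested on 22 UMIs.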
